A study of Caenorhabditis elegans with 4 samples.

Results

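The X chromosome of Caenorhabditis elegans held 355 of the 2008 IMB-1 peaks in the series-level list of a chromatin immunoprecipitation sequencing (ChIP-seq) study. All peaks whose chromosome is given as X were taken, whatever their score. They were set beside the 289 X peaks among 1753 in ChIP replicate 1 and the 355 X peaks among 1620 in ChIP replicate 2. The series has 4 samples, 2 of ChIP DNA and 2 of input DNA. All came from wild-type N2 mixed embryos from a population with males and hermaphrodites, and N2 is the standard laboratory strain. The ChIP antibody was an affinity-purified rabbit polyclonal, SDQ4154 IMB1, raised against a stretch of the IMB-1 protein. The labels number the replicates and do not say that these were separate cultures, and the spread between them may be technical. Input was not analysed here, so peaks could not be set against the background that input measures. Depth is unknown, since the lists give no reads.

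IMB-1 is the importin beta of the nematode, a receptor that carries cargo proteins through the nuclear pore and releases them in the nucleus on meeting Ran-GTP. Hermaphrodites are XX and males XO, and in hermaphrodite embryos the dosage compensation complex loads along both X chromosomes and lowers their expression. The autosomes of this nematode touch the nuclear periphery through both of their arms, whereas on X the contact is known mainly from the left end. These statements are background, and no list used here records pores, dosage compensation sites or the nuclear periphery. Peaks are given by position on WormBase build WS220, counted from 1, without gene names, since no annotation of that build was used here.

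Peaks covered about the same small part of X in each list. They covered 1.07% of X in the series-level list, 0.814% in replicate 1 and 0.927% in replicate 2. Both replicates together shared 80243 bp, which was 55.7% of the bases in replicate 1 peaks on X and 48.8% of those in replicate 2 peaks. The number of peaks per Mb was 20.0 on X in the series-level list, 16.3 in replicate 1 and 20.0 in replicate 2. On the autosomes it was 20.0, 17.7 and 15.3, so the replicates differed in direction and the series-level density on X equalled that of the autosomes.

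The strongest X peaks were found in both replicates, and many of the weak ones in neither. A peak was counted as touching a replicate when at least 1 bp of it lay in a peak of that replicate. Among the series-level X peaks, 112 touched both replicates (31.5%, 95% interval 26.7 to 36.7%), against 26.6% over the whole list. Replicate 1 alone was touched by 96 (27.0%, 22.5 to 32.0%), replicate 2 alone by 31 (8.73%, 6.01 to 12.2%) and neither by 116 (32.7%, against 33.7% over the whole list). On the autosomes replicate 1 alone was touched by 35.6% (33.3 to 37.9%) and replicate 2 alone by 5.03% (4.03 to 6.20%). In all, 208 X peaks touched replicate 1 (58.6%, 53.3 to 63.8%) and 143 touched replicate 2 (40.3%, 35.1 to 45.6%), where the whole list gave 60.6% and 32.3%. The intervals are exact Clopper-Pearson intervals, which cover counting error only and treat each peak as a separate draw, which grouped peaks are not. The series-level list was deposited for these same samples, so contact with their peaks was bound to be common.

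Support by both replicates went with score. The score is the authors' own value for each peak, on a scale the file headers do not name, and served here for ranking inside each list alone. All of the 20 highest-scoring X peaks touched both replicates, as did 49 of the first 50 and 85 of the first 100. The median rank in the whole series-level list was 240 for X peaks touching both replicates, 844.5 for those touching replicate 1 alone, 1088 for replicate 2 alone and 1454 for neither. Widths followed the same order, with medians of 536.5 bp, 335 bp, 253 bp and 202 bp. Of the 128 X peaks under 250 bp wide, 7 touched both replicates, while 9 of the 13 X peaks of 2000 bp or more did. These shares, 5.47% and 69.2%, were close to the 3.93% and 64.4% on the autosomes. Peak width and score were both set by the authors' peak caller and are not independent of each other.

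**Figure D1:**
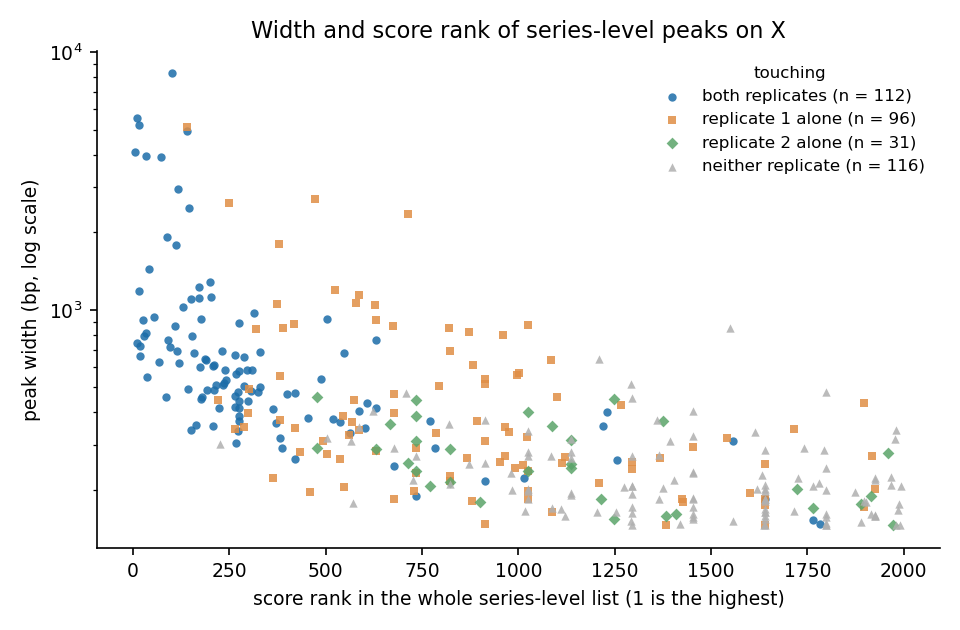
Each point is 1 of the 355 series-level peaks on X, with its score rank in the whole list of 2008 (horizontal, 1 is the highest) and its width in bp (vertical, log scale), marked by which replicates it touched. The 112 peaks touching both replicates sit at the upper left, with a median rank of 240 and a median width of 536.5 bp, and the 116 touching neither at the lower right, with 1454 and 202 bp.

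The highest-scoring peak on X lay at 15807143 to 15811219 and ranked 6th of 2008 in the series-level list. It was 4077 bp wide and was a single peak in each replicate, covering 100% of it in replicate 1 and 94.6% in replicate 2. In both replicates it belonged to a group of peaks tied at a score of 3100.00, which ranks 2nd in replicate 1 (56 peaks, 15 of them on X) and 4th in replicate 2 (42 peaks, 9 on X). Ranks given as tied below refer to these groups. Where a replicate held several peaks at a place, the rank given is that of the best of them. Of the 9 tied X peaks of replicate 2, 6 touched a tied X peak of replicate 1. No such count is given for the autosomes, so this value is not a trait of X.

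The second X peak by score, at 11643521 to 11644262, was narrow at 742 bp and ranked 9th of the list. It ranked 77th in replicate 1 and was in the tied group of replicate 2. The third, at 289809 to 295377, was 5569 bp wide, was tied in replicate 1 and ranked 239th in replicate 2. These first 3 peaks show that a high series-level score went with a wide peak in some places and a narrow one in others. The fourth, at 109105 to 114327 (5223 bp), was split into 2 peaks in each replicate, of which only the larger was tied. The fifth, at 5056127 to 5057306 (1180 bp), was tied in replicate 1, ranked 87th in replicate 2 and closed a run of closely spaced peaks described further on. The sixth, at 14229051 to 14229710 (660 bp), lay wholly inside a replicate 1 peak, while replicate 2 covered 57.6% of it, the lowest coverage by either replicate among the first 10.

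Of the remaining peaks of the first 10, those at 2057758 to 2058478 (721 bp) and at 2002666 to 2003578 (913 bp) were tied in both replicates. The peak at 13794968 to 13795755 (788 bp) ranked 82nd in replicate 1 and 46th in replicate 2. The peak at 11785572 to 11789516 (3945 bp) was split into 2 peaks in each replicate. The larger was tied in replicate 1 and ranked 113th in replicate 2. The first 10 X peaks thus fell into 6 narrow ones of 660 to 1180 bp, and 4 broad ones of 3945 to 5569 bp. None of them lay between 5057306 and 11643521.

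Of the 5 widest X peaks, 3 were covered to more than 95% in each replicate. The widest, at 10360912 to 10369178 (8267 bp), was a single peak in each replicate, with 98.4% of its bases covered in replicate 1 and 97.3% in replicate 2. It was tied in replicate 1 but ranked 507th of 1620 in replicate 2, and 102nd in the series-level list. The peaks at 289809 and 109105 named above came next in width. The fourth, at 14384657 to 14389779 (5123 bp), differed. Replicate 1 covered 98.4% of it with a single tied peak, and replicate 2 had no peak there at all. It was also the only one of the first 50 X peaks by score that did not touch both replicates. The fifth widest, at 4025941 to 4030901 (4961 bp), was made of 4 peaks in each replicate, which covered 96.2% of it in replicate 1 and 61.9% in replicate 2.

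All 13 X peaks of 2000 bp or more touched replicate 1, and 4 of them touched no peak of replicate 2. Besides the peak at 14384657, these were the peaks at 5913261 to 5915856 (2596 bp), 5048732 to 5051428 (2697 bp) and 1884635 to 1886987 (2353 bp). They were chosen as a class after their widths had been seen. On the autosomes 73 of 1650 peaks were that wide (4.42%, 3.48 to 5.53%), against 3.66% (1.96 to 6.18%) on X.

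Among the first 100 X peaks by score, 14 touched replicate 1 alone and 0 touched replicate 2 alone. This lead of replicate 1 was not confined to X. In the top 25% of the list, 20 of 112 X peaks touched replicate 1 alone (11.3 to 26.2%) and 2 touched replicate 2 alone. On the autosomes 93 of 388 touched replicate 1 alone (19.8 to 28.5%, an overlapping interval) and 2 touched replicate 2 alone. The X peaks touching replicate 1 alone were led by the peak at 14384657, which ranked 140th in the series-level list. Next came 1953926 to 1954370 (445 bp), ranked 219th in the list and 247th in replicate 1, and 5913261 to 5915856, ranked 249th and 140th. The best peaks touching replicate 2 alone, at 1880685 to 1880974 (290 bp) and 2226920 to 2227380 (461 bp), shared rank 476 in the list, and they ranked 913th and 613th in replicate 2. The third of that kind, at 16602401 to 16602689, ranked 630th.

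The 2 ends of X differed. The first peak started at base 1 and ended at 343, touched both replicates and ranked 150th in the list, 244th in replicate 1 and 358th in replicate 2. The last peak, at 17718596 to 17718897, ranked 226th, the best rank of any X peak that touched neither replicate. The next best without replicate support were at 16171364 to 16171681 (rank 502) and 6902929 to 6903238 (rank 566). Among the 112 X peaks ranked in the top 25% of the list, this right-end peak was the only one without support from either replicate.

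Compared peak by peak, the replicates had nearly equal counts of shared X peaks, and the shares differed with the length of each list. Of 289 X peaks in replicate 1, 130 touched replicate 2 (45.0%, 39.2 to 50.9%), where the whole list gave 34.7%. Of 355 X peaks in replicate 2, 126 touched replicate 1 (35.5%, 30.5 to 40.7%), where the whole list gave 36.7%. Of the X peaks in replicate 1, 256 (88.6%) touched the series-level list, close to the 88.9% over all chromosomes. Of those in replicate 2, 153 (43.1%) did, also 43.1% over all chromosomes.

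Replicate peaks that overlapped were also paired, and by that choice their middles had to lie near each other. When each replicate peak was matched to at most 1 of the other replicate, X held 119 pairs, whose middles lay a median of 39.0 bp apart (75th percentile 80.2 bp). On single autosomes that median was 28.5 to 47.0 bp. The replicate 1 peak was the wider in 69 pairs and the replicate 2 peak in 48. Across these 119 pairs the Spearman correlation was 0.56 for score and 0.70 for width, and on single autosomes it ran from 0.48 to 0.68 for score and from 0.66 to 0.79 for width. These correlations are descriptions across peaks that share libraries, and the tied high scores enter them.

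Strong peaks found in 1 replicate and in no other list came from replicate 2. Of its 355 X peaks, 196 (55.2%, 49.9 to 60.5%) touched neither replicate 1 nor the series-level list, against 55.3% on the autosomes. In replicate 1 that count was 28 of 289 (9.69%, 6.53 to 13.7%), against 9.70% on the autosomes. Thus X and the autosomes had nearly equal shares of such peaks in either replicate. Of the 200 highest-scoring peaks of replicate 2, 54 were on X, and 14 of these were in no other list (25.9%), as were 28 of the 146 on autosomes (19.2%). By contrast, all 43 X peaks among the first 200 of replicate 1 touched the series-level list and 41 of them touched replicate 2. Full contact with the series-level list was not a trait of X. In the highest of the score classes described further on, all 93 X peaks and all 345 autosomal peaks of replicate 1 touched that list. No autosomal count was set beside the 41.

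The best of the X peaks found in replicate 2 alone lay at 11093847 to 11094378 (532 bp) and ranked 103rd of 1620. It was followed by 11030762 to 11031601 (840 bp, rank 108) and 16961173 to 16961811 (639 bp, rank 110). The next 2 were at 16929410 to 16930178 (769 bp, rank 121) and 6296280 to 6296744 (465 bp, rank 128). These 5 peaks, of 465 to 840 bp, were not typical of the 196, whose median width was 273.5 bp and median rank 900. The 196 peaks lay at a median of 25776.5 bp from the nearest peak of another list, and 34 of them (17.3%) lay within 5 kb of one. They were chosen for touching no other list, and no autosomal distance was set beside these values.

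In replicate 1 the best X peak in no other list, at 225603 to 225793 (191 bp), ranked only 939th of 1753. The next were at 4285397 to 4285539 (143 bp, rank 941), 1833858 to 1833999 (142 bp, rank 972), 12502574 to 12502779 (206 bp, rank 1021) and 1834127 to 1834306 (180 bp, rank 1113). All 5 were narrower than any of the 5 named from replicate 2. The 28 peaks of this kind in replicate 1 lay closer to other lists, at a median of 4297 bp.

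**Figure D2:**
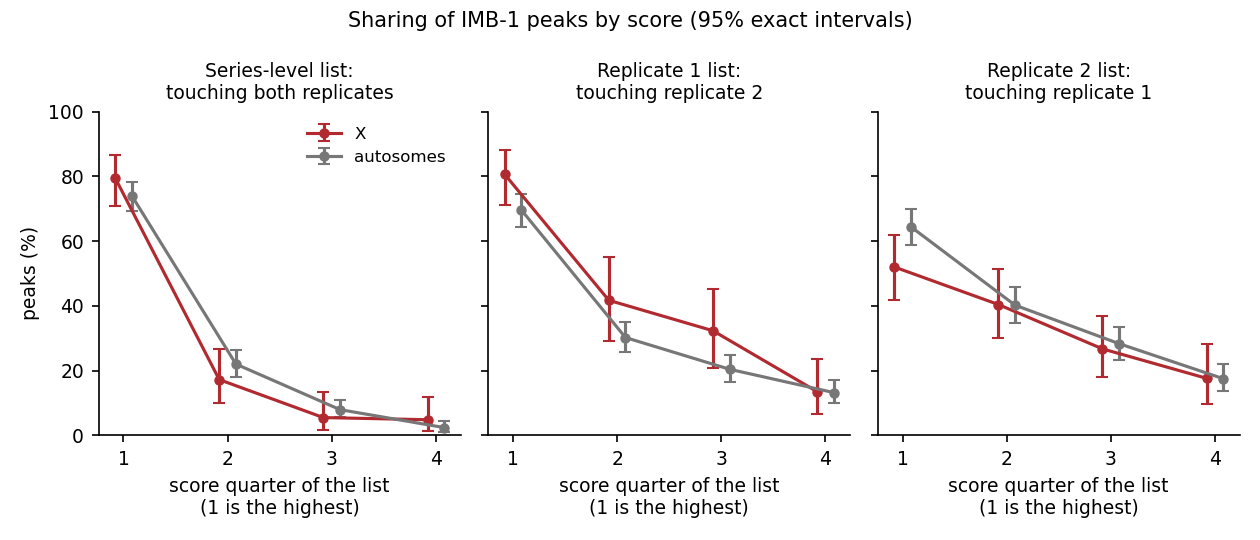
The share of peaks (vertical, percent) that touched both replicates (left) or the other replicate (middle, right) is given for 4 score classes, each 25% of a whole list (horizontal, 1 is the highest), for X and for the 5 autosomes together, with exact 95% intervals. On X the share in the highest class was 79.5% in the series-level list, 80.6% in replicate 1 and 52.0% in replicate 2.

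Within score classes of 25% of the series-level list, X peaks and autosomal peaks had similar support. In the highest class, 89 of 112 X peaks touched both replicates (79.5%, 70.8 to 86.5%), against 74.0% (69.3 to 78.3%) on the autosomes. In the second class the shares were 17.2% (9.98 to 26.8%) on X and 22.0% (18.1 to 26.3%) on the autosomes, so the order of the 2 turned round. These intervals overlapped. The replicates parted in opposite directions in their highest classes, again with overlapping intervals. In replicate 1, 75 of 93 X peaks touched replicate 2 (80.6%, 71.1 to 88.1%), against 69.6% (64.4 to 74.4%) on the autosomes. In replicate 2, 53 of 102 X peaks touched replicate 1 (52.0%, 41.8 to 62.0%), against 64.4% (58.7 to 69.8%) on the autosomes. Differences between X and the autosomes were not tested.

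Set beside each autosome, X had the highest shares of series-level peaks touching both replicates and of high-scoring peaks, but did not lead in every measure of support. The share touching both replicates was 31.5% on X and 22.3 to 27.3% on the single autosomes, lowest on III and highest on V. The share touching replicate 2, 40.3% on X, was 26.1 to 33.3% on the autosomes. The share touching replicate 1 was 58.6% on X and 57.6 to 65.1% on the autosomes, so X ranked 5th of 6 there. The share ranked in the top 25% of the list was 31.5% on X (112 peaks) and 18.8 to 26.4% on the autosomes. X was also first by this measure within each replicate, at 32.2% against 21.2 to 26.2% in replicate 1 and 28.7% against 19.2 to 26.9% in replicate 2. The interval for X in the series-level list, 26.7 to 36.7%, overlapped those of all autosomes except II, at 14.4 to 23.9%. X came second, after an autosome, for support by both replicates when only the higher-scoring 50% of every list was kept (36.7% against 38.8%) and among peaks of the higher-scoring 25% alone (79.5% against 81.1%). When peaks within 5 kb were merged, 106 of 222 sites on X touched both replicates (47.7%, 41.0 to 54.5%), against 36.4 to 43.7% on the autosomes.

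**Figure D3:**
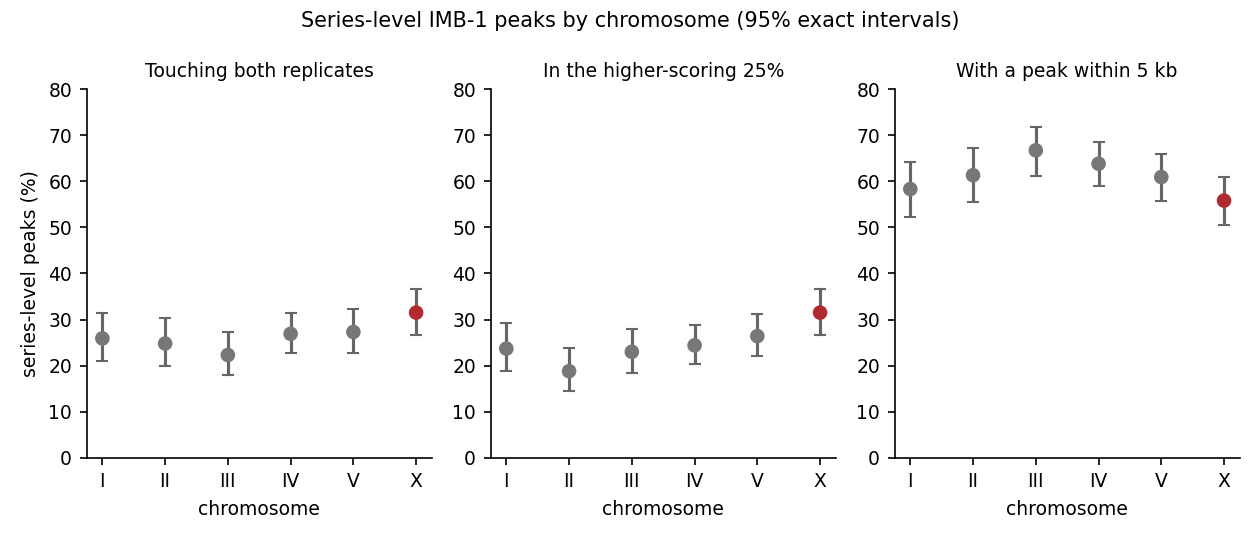
For each of the 6 nuclear chromosomes (horizontal), points give the share of series-level peaks (vertical, percent) touching both replicates, ranked in the top 25% of the list, and with another series-level peak within 5 kb, with exact 95% intervals. X (red) was the highest in the first 2 panels, at 31.5% in each, and the lowest in the third, at 55.8%, and its intervals overlapped those of most autosomes.

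Along X, peaks were least dense in the middle, and the first 4 Mb were denser than the rest. Of its left, middle and right parts, each 33.3% of its length, the left held 139 series-level peaks (39.2%, 34.0 to 44.4%), the middle 94 (26.5%, 22.0 to 31.4%) and the right 122 (34.4%, 29.4 to 39.6%). Both replicates showed the low middle, with 22.8% of X peaks in replicate 1 and 25.6% in replicate 2. They differed in the balance of the ends, at 43.9% left and 33.2% right in replicate 1 but 37.5% and 36.9% in replicate 2. Merging peaks within 5 kb into sites left the middle lowest, at 28.4% of series-level sites, but put the left at 34.7% and the right at 36.9%. By covered bases of series-level peaks the left held 42.6%, the middle 28.1% and the right 29.3%. The balance between the ends thus depended on how peaks were counted. Both outer parts together held 73.5% of series-level X peaks, within the range of the single autosomes, which was 66.0 to 81.3%.

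The first 4 Mb make up 22.6% of the length of X and held 104 series-level peaks (29.3%, 24.6 to 34.3%). The density there was 26.0 peaks per Mb, against 18.3 over the rest of X. In replicate 1 the corresponding densities were 22.8 and 14.4, and in replicate 2 they were 23.8 and 19.0. All 3 lists were thus denser in the first 4 Mb, with less of a difference in replicate 2. Peaks touching both replicates were at 8.75 per Mb there and 5.61 per Mb in the rest, while those touching neither were at 6.75 and 6.49. After merging within 5 kb, 60 of 222 series-level sites, 53 of 175 replicate 1 sites and 72 of 282 replicate 2 sites were in the first 4 Mb. The interval for merged series-level sites (27.0%, 21.3 to 33.4%) included the 22.6% of length. So did that for replicate 2 peaks (26.8%, 22.2 to 31.7%). No autosomal end of 4 Mb was set beside these values.

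**Figure D4:**
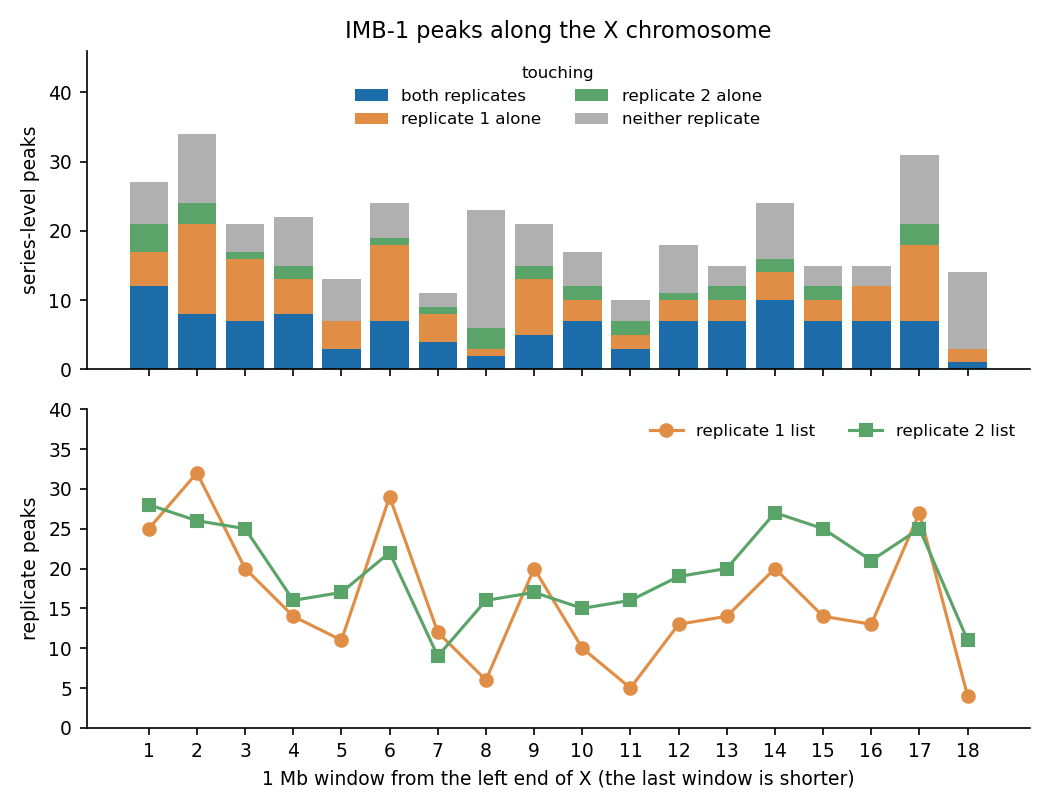
The upper panel counts series-level peaks in 1 Mb windows of X from its left end (horizontal; the 18th window is shorter), divided by the replicates they touched, and the lower panel counts the X peaks of each replicate in the same windows. The second window is the tallest with 34 peaks, and in the eighth 17 of 23 peaks touched neither replicate. Of these 17, 10 stood in a single run of closely spaced peaks.

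In windows of 1 Mb, X held 10 to 34 series-level peaks, with a median of 21.0 over the 17 full windows. The most were between 1000001 and 2000000, with 34 series-level, 32 replicate 1 and 26 replicate 2 peaks. The window from 16000001 to 17000000 had 31, 27 and 25, and the first window had 27, 25 and 28. In these 3 windows all lists were rich. The fewest were between 10000001 and 11000000, with 10 series-level, 5 replicate 1 and 16 replicate 2 peaks. The windows from 6000001 to 7000000 and from 4000001 to 5000000 had 11 and 13 series-level peaks. The longest stretch of X without a peak in any list ran from 6371617 to 6593304 (222 kb), and the next from 2613392 to 2801556 and from 7585978 to 7773875 (188 kb each).

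Peaks touching both replicates were found in every window. Each full window had 2 to 12 peaks touching both replicates, with a median of 7. The first window had the most, 12 of 27. Windows with little support stood out in 2 places, which were named after their values had been seen. Between 7000001 and 8000000, 2 of 23 series-level peaks touched both replicates and 17 touched neither. A single run of closely spaced peaks, described further on, held 11 of these 23 and 10 of these 17. In the last, shorter window from 17000001, 1 of 14 touched both and 11 touched neither, 5 of these 11 in a single run.

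Many series-level X peaks had a near neighbour, but a smaller share than on any autosome. The X peaks in both replicates mostly stood alone. The median gap between neighbouring X peaks was 18846 bp in the series-level list, 24060.5 bp in replicate 1 and 31704 bp in replicate 2. The gaps were very uneven. In the series-level list 100 of 354 gaps (28.2%) were of 1 kb or less and 63 were over 100 kb. Replicate 2 had the fewest short gaps, 40 of 354 (11.3%), against 94 of 288 (32.6%) in replicate 1. The 112 peaks touching both replicates had a median gap of 105137 bp among themselves, with 4 of 111 gaps of 1 kb or less. Leaving peaks out widens gaps, so this value cannot be read against that of the full list. The peaks touching neither replicate had a median gap of 59535 bp among themselves, with 26 of 115 gaps of 1 kb or less.

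In the series-level list 198 of 355 X peaks (55.8%, 50.4 to 61.0%) had another within 5 kb, against 58.3 to 66.7% on the single autosomes. The share was 57.4% in replicate 1, also below all autosomes, but 35.5% in replicate 2, where III was lower at 34.5%. Among X peaks touching both replicates 35.7% had such a neighbour, against 67.7% of those touching replicate 1 alone and 66.4% of those touching neither. The autosomes also had a lower share among peaks touching both, at 46.2%, against 78.5% and 60.4%. Merging within 5 kb turned the 355 series-level X peaks into 222 sites, of which 157 were single peaks, 43 were pairs and 10 had 5 or more peaks. Replicate 1 gave 175 sites, 123 of them single, and replicate 2 gave 282, of which 229 were single.

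A run was a stretch of at least 5 peaks in which neighbours lay within 5 kb of each other. Runs held 73 of the 355 series-level X peaks in 10 places (20.6%, 16.5 to 25.1%). The autosomal range was 16.5% on I to 38.7% on III, and the run with most peaks on X had 11, against 12 to 46 on the single autosomes. Replicate 1 had 7 runs on X with 61 peaks (21.1%, against 25.1 to 51.6% on the autosomes). Replicate 2 had 0 of 355 X peaks in a run, with an exact upper limit of 1.03%, while each autosome had 1 to 3 runs in that replicate. Of the 73 series-level peaks in runs, 5 touched both replicates (6.85%), 36 touched replicate 1 alone (49.3%) and 31 touched neither (42.5%). On the autosomes 46 of 407 peaks in runs touched both replicates (11.3%), 253 touched replicate 1 alone (62.2%) and 101 touched neither (24.8%). Outside the runs on X, 107 of 282 touched both (37.9%).

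The 5 runs with most peaks differed in what the replicates held there. The run with most peaks lay at 7351686 to 7360631 (8.95 kb). Its 11 series-level peaks, of 152 to 480 bp, met 1 peak of replicate 1 and 0 of replicate 2, and 10 of them touched neither. This run lies in the eighth window, named above for its low support. The run at 5045365 to 5057306 (11.9 kb) was the reverse, with 9 of 10 peaks touching replicate 1. Replicate 1 peaks covered 69.1% of its length in 14 peaks, and replicate 2 had a single peak, which met the strong series-level peak at 5056127 at its right edge.

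At 16927974 to 16939485 (11.5 kb), 9 series-level peaks stood beside 11 of replicate 1 and 2 of replicate 2. Of these 2 replicate 2 peaks, 1 was the peak at 16929410 found in that replicate alone. At 2056872 to 2063676 (6.80 kb), 8 series-level peaks stood beside 7 and 3, and the strong peak at 2057758 was among them. At 1136296 to 1140607 (4.31 kb), 7 series-level peaks met 3 of replicate 1 and 0 of replicate 2. A peak among the 10 highest-scoring of X was thus part of 2 of these 5 runs, while the other members of those runs ranked from 215 downward.

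**Figure D5:**
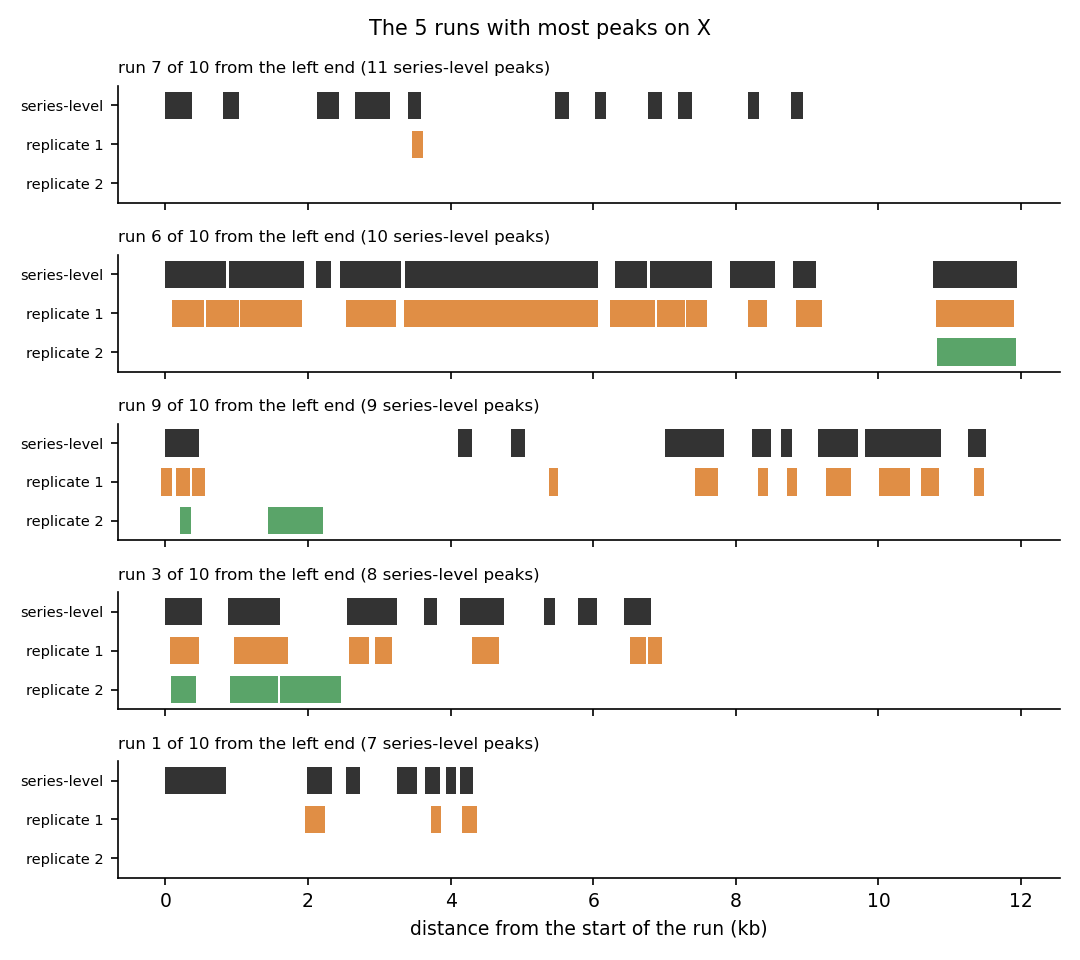
Bars give the extent of peaks in the 3 lists (rows) over the 5 series-level runs with most peaks on X, by distance in kb from the start of each run. Replicate 1 bars follow the series-level bars in run 6 of 10, where 9 of 10 series-level peaks touched replicate 1, and are nearly missing in run 7, where 1 of 11 did.

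The other 5 runs held 5 to 7 series-level peaks each. The run at 1880685 to 1887931 met 11 peaks of replicate 1 and 1 of replicate 2, and the run at 2992305 to 2995075 met 6 and 0. The run at 4025941 to 4038136 (12.2 kb), the longest on X in bp, began with the wide peak named above and met 5 and 4. The run at 11975635 to 11979469 met 3 and 0. The last, at 17442383 to 17447353, held 5 peaks and met none of either replicate. Replicate 1 had a further run of 6 peaks at 6826952 to 6829206, where the series-level list had 2.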

How the data were processed

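ChIP-seq peak lists of 2 ChIP replicates and of the series were analysed. Input and signal were not analysed here. Reads were aligned with BWA to ce10, per the submitters' processing notes. Peaks were called with MACS in each replicate and MACS v2 in the series-level list, and positions refer to WormBase WS220, per the file headers. The sources used here do not state settings, control or threshold, nor whether the series-level list pools replicates. The deposited score is the authors' own, on a scale not named.

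Overlaps, gaps, widths, ranks and exact Clopper-Pearson 95% intervals were computed with scipy 1.17.1, pandas 2.3.3 and numpy 2.4.6 under Python 3.11.15 (plots: matplotlib 3.10.9), and the measures were tested on made lists with known answers. No hypothesis test was run. Replicate peaks were paired by their largest overlap. The length of X was taken as the largest peak end, 17718897. A peak lies where its middle falls. Members, limits and alternatives were chosen with earlier results of these data known. Named peaks follow a rule: the 10 highest-scoring, 5 widest, 3 best per support class, both ends, and in each replicate the 5 best in no other list. Runs, windows and empty stretches were likewise ranked. Of the runs with 7 peaks, tied for the fifth place, the leftmost was taken.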

Additional observations from a re-analysis of the deposited data

How the results depend on the processing

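Of 52 alternatives over 11 results on X, 27 stayed within the main value's 95% interval and 25 did not. Those that did include all 10 for both outer parts of X (71.6 to 77.2%) and the first 4 Mb (26.8 to 31.5%). Leaving out the runs was chosen after the data were seen. Support by both replicates (31.5%) was 20.6% with a reciprocal overlap of 50%, 36.7% in the higher-scoring 50% of each list and 37.9% without the runs. By 1 replicate at a time, the series-level share was 40.3 to 58.6%. The reciprocal overlap also lowered contact with replicate 1 to 42.0% and with replicate 2 to 28.5%, and the latter was 48.6% without the runs. Replicate 1 X peaks touching replicate 2 (45.0%) were at 31.8% with the reciprocal overlap, 54.2% in the higher-scoring 50% and 53.5% without runs. Replicate 2 X peaks touching replicate 1 (35.5%) were at 25.9% and 40.8% for the first 2 of these. Neighbours within 5 kb (55.8%) fell to 31.2% in the higher-scoring 50%, and were 35.5 to 57.4% in single replicates, 49.6% at 2 kb and 62.8% at 10 kb. The share in runs (20.6%) was 9.05% in the higher-scoring 50%, 5.92% for runs of 10 or more, and 0 to 21.1% in single replicates. The median width (315 bp) was 462 bp in the higher-scoring 50%, 483 bp after merging and 251 to 310 bp in single replicates. Of X peaks, 12.7% and 56.1% were in the higher-scoring 10% and 50%, cutoffs that hold these shares of the whole list by construction. The cause of the changes was not tested.

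No paired analysis was possible because the values are shares of peaks in lists, given without a test, and no input peak list was used here. With depth unknown, a place without a peak in a replicate cannot be read as unbound. Overlaps counted at 1 bp also favour wide peaks, and peaks on 1 chromosome in 3 lists of the same samples are not independent.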
